A study of Mus musculus with 10 samples.

Results

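The regions described here are the stretches of mouse chromatin that were most open in group 2 innate lymphoid cells (ILC2s) of the large intestine (LI), as measured by ATAC-seq, an assay in which a transposase cuts accessible DNA and the reads counted in a region measure how open it was. ILC2s were compared between 5 tissues, the LI, small intestine (SI), pancreas, lung and bone marrow (BM), with 2 libraries of 50000 sorted cells from each. The table held 50039 regions. A region was kept when both LI libraries were above all 8 libraries of the other tissues by a margin of at least 0.2, where the margin was the lower LI level minus the highest level of the others and a level was log2(normalised count + 1). By this rule 1035 regions, 2.07% of the table, were most open in LI. The same rule gave 1718 regions for SI, 1334 for pancreas, 1083 for lung and 3226 for BM. All cells came from wild-type male C57BL/6 mice, 6 weeks old, with 10 mice pooled for each LI or SI library and 16 for each BM, lung or pancreas library. The sort gate for LI, lung and pancreas took cells positive for CD45, CD127, ST2 and CD25, the BM gate took cells positive for ST2 and CD25, and the SI gate took KLRG1+ cells with CD127, CD45 and an intermediate or low Thy1 level. Cells with the lineage markers CD3, B220, CD11b, CD11c or FcεRI were gated out in all 5 tissues. The SI gate used neither ST2 nor CD25, so that tissue and gate cannot be told apart in a comparison of LI with SI. The BM gate named neither CD45 nor CD127, and BM was sorted on another instrument than the rest. By the study's methods BM was flushed out, lung and pancreas were digested with collagenase, and both intestines were treated with EDTA before collagenase. Tissue therefore cannot be told apart from isolation in a comparison of LI with lung, pancreas or BM.

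ILC2s are tissue-resident lymphocytes without antigen receptors that release type 2 cytokines such as IL-5 and IL-13 when epithelial alarmins reach them. Open regions far from gene starts often hold enhancers, where lineage factors such as GATA3 and signal-driven factors such as AP-1, a dimer of JUN, FOS and BATF family proteins, bind short DNA motifs. The natural killer (NK) gene complex on mouse chromosome 6 encodes lectin-like receptors of NK cells and other lymphocytes, among them CD94 (Klrd1) with its NKG2 partners (Klrc1, Klrc2 and Klrc3) and the activating receptor NKG2D (Klrk1).

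Sequences of 8 regions are shown first, because the results below turn on where they lie and what they hold. Each is the central 300 bases of its region, on the plus strand of mm10 as RefSeq gives it (GRCm38.p6), and capitals mark every match to 15 motifs, all of those searched but NF-kappaB. They were chosen after their values were seen. Klrd1, Klrc1 and Klre1 are regions of the NK gene complex with large margins. Slamf1, Ctla4 and Ahr are regions near genes of the costimulatory and nuclear receptor lists. Gata3 and Gdap10 are regions with large margins made of tandem repeats. Each is named by the gene whose start is nearest.
Klrd1, chr6:129599695-129599994: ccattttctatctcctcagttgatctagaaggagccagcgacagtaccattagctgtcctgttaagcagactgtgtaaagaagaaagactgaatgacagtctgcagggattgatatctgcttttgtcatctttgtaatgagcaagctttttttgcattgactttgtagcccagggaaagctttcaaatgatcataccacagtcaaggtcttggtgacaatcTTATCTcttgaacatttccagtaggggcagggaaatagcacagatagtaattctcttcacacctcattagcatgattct
Klrc1, chr6:129680426-129680725: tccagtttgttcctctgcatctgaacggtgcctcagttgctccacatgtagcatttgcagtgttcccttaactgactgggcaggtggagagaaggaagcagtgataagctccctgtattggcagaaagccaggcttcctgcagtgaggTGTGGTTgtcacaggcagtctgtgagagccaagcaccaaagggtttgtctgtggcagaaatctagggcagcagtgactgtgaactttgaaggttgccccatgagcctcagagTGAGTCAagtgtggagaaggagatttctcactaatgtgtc
Klre1, chr6:129583119-129583418: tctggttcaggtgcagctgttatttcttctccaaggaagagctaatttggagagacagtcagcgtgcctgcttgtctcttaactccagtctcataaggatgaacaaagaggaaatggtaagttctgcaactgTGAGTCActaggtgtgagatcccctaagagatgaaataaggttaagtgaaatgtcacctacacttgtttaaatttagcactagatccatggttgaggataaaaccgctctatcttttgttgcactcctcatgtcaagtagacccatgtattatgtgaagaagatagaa
Slamf1, chr1:171788533-171788832: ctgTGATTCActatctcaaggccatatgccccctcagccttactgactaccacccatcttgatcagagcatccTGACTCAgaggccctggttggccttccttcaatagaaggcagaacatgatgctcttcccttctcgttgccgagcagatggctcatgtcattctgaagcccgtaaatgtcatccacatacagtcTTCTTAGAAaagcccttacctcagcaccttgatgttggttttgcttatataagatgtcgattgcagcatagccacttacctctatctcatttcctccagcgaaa
Ctla4, chr1:60833640-60833939: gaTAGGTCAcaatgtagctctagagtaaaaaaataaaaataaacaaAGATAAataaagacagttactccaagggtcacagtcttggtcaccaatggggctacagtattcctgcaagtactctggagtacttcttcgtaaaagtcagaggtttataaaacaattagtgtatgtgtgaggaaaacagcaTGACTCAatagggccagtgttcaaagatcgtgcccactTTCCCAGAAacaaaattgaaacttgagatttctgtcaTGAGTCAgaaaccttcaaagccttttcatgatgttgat
Ahr, chr12:35480720-35481019: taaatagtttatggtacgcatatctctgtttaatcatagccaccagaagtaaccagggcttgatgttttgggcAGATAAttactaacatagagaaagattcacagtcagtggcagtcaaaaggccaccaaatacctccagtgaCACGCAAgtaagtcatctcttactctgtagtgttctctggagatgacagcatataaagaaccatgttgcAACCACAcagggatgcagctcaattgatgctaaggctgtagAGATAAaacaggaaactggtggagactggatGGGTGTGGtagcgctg
Gata3, chr2:9776032-9776331: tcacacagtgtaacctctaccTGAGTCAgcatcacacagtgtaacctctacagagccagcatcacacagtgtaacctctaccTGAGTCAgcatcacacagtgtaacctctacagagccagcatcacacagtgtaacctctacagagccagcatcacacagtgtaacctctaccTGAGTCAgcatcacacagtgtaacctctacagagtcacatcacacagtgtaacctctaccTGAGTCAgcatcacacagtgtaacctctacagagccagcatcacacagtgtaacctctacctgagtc
Gdap10, chr12:32848217-32848516: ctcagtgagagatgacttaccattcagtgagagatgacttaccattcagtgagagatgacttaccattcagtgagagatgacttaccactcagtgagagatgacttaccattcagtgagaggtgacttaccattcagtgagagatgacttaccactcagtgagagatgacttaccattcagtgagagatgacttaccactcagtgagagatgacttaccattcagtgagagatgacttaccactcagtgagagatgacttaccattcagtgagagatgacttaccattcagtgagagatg
The AP-1 motif TGANTCA stood at base 261 of the Klrc1 stretch and at base 133 of the Klre1 stretch, and the Klrd1 stretch held a GATA motif at base 222 but no AP-1 motif. The Slamf1 and Ctla4 stretches held 2 AP-1 motifs each. The Ahr stretch held 2 GATA motifs, a RUNX motif, a KLF motif and an AHR motif. The 4 AP-1 motifs of the Gata3 stretch were copies of 1 repeated unit, and the Gdap10 stretch, a short unit repeated from end to end, held no match.

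The regions most open in LI were of moderate height and lay far from gene starts. Their mean LI normalised count, the read count divided by the library's median-of-ratios size factor, had a median of 192 over the 1035 regions, and the lowest raw count in an LI library was 32. The mean level of the 1035 regions was 7.87 and 7.85 in the LI libraries, 6.61 and 6.68 in SI, 6.71 and 6.92 in pancreas, 6.39 and 6.33 in lung and 5.97 and 6.07 in BM. The mean level of all 50039 regions, which the size factors hold close together, lay between 7.25 and 7.42 in every library. The median difference in level from LI was 0.95 to pancreas, 1.08 to SI, 1.36 to lung and 1.74 to BM. LI replicate 1 was the higher LI library in 524 regions and LI replicate 2 in 511. The median margin was 0.38, and the margin reached 0.5 in 329 regions, 1 in 53 and 1.5 in 12. The regions were chosen by these levels in all 10 libraries, which are therefore given as a description.

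**Figure D1:**
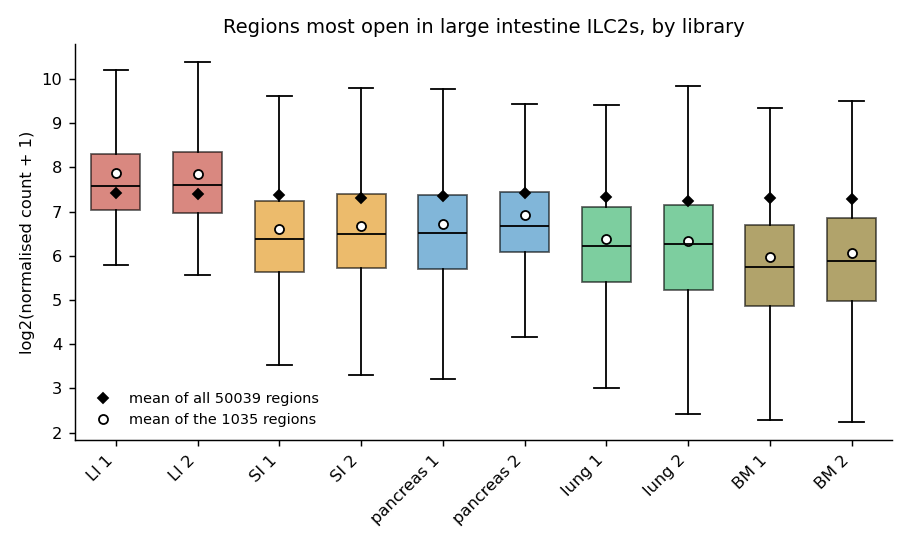
Levels of the 1035 regions most open in LI in each of the 10 libraries, on the log2(normalised count + 1) scale, with boxes from the lower to the upper quartile, a line at the median, whiskers to the last value within 1.5 box lengths and circles at the mean. The means were 7.87 and 7.85 in LI and 5.97 to 6.92 in the other libraries, while the means of all regions (diamonds) were 7.25 to 7.42 throughout.

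Promoters were scarce among these regions. Of the 1035 regions, 38 lay at a promoter (from 1000 bp before to 100 bp after a curated RefSeq start), which is 3.67% (95% Wilson interval 2.69 to 5.00%) against 19.2% of all regions. Introns held 487 regions, and 485 regions (46.9%, interval 43.8 to 49.9%) were intergenic, against 32.7% of all regions. The median distance to the nearest gene start was 30.7 kb, against 10.4 kb for all regions. The distance remained longer when promoters were set aside, at 32.8 kb against 16.3 kb. The median GC content was 44.9% against 49.8% for all regions, and 44.8% against 48.1% outside promoters. Among the other tissues, 6.87% of the regions most open in SI, 5.40% of those in pancreas, 6.37% of those in lung and 29.5% of those in BM lay at promoters.

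Some features of the libraries bear on these regions. Total counts ran from 10282987 (pancreas replicate 2) to 32797872 (lung replicate 2), with 13290901 and 23133684 in LI. In 29 regions of the table at least 5% of the 16-base words also occurred in the mitochondrial chromosome, a definition set after the data were seen, and all 29 were most open in LI. Reads in these 29 regions made up 13.6% and 16.6% of the LI counts and 3.31% to 11.6% of the counts of the other libraries, and all 15 regions with a mean LI normalised count above 10000 were among them. The largest was an intergenic region nearest to Col19a1 (chr1:24613607-24614118) with 589038 and 619921 in LI and 114083 to 466152 elsewhere, and the next were nearest to Gad2, Tyrp1, Ccnh and 1700019M22Rik. Whether the reads of these 29 regions came from the nuclear regions or from mitochondrial DNA cannot be told apart in the counts. At a cut of 2% in place of 5%, 41 regions qualified and 37 of them were most open in LI. Outside the 29 the highest mean LI normalised count was 5039, in intron 1 of Asxl3. Its differences in level from LI were 0.74 to BM, 0.90 to pancreas, 1.30 to SI and 2.09 to lung. At the Col19a1 region they were 0.76, 0.70, 1.28 and 2.14 in that order. Whether reads at Asxl3 also came from mitochondrial DNA was not tested. The cell type labels were checked on promoters of marker genes, none of which was among the 1035 regions. Promoters of 17 of 19 ILC2 identity genes had a region, with summed normalised counts of 7748 and 9542 in LI and 7757 to 11273 elsewhere. For ILC1 and NK cells 2 of 9 promoters had a region (Prf1 and Gzmb), summing to 229 and 246 in LI and 48.1 to 275 elsewhere. ILC3 promoters (2 of 9) summed to 405 and 584 in LI and 292 to 577 elsewhere, T cell promoters (4 of 11) to 605 and 735 against 688 to 1088, B cell promoters (3 of 8) to 297 and 179 against 102 to 764, macrophage and dendritic cell promoters (4 of 10) to 688 and 547 against 468 to 1297, epithelial promoters (3 of 12) to 205 and 123 against 119 to 265 and stromal promoters (1 of 10) to 348 and 318 against 224 to 357. None of the 10 mast cell, basophil and eosinophil promoters had a region. The sums hide single genes. LI had the highest mean level at Cxcr5 of the ILC3 list (229 and 435, others 116 to 294) and at Gzmb (94.9 and 97.0, others 7.44 to 91.6). The same held for Cd5 of the T cell list (81.4 and 114, others 21.4 to 90.2) and the stromal Pdgfra. At every other marker promoter another tissue was highest. The part of other cells in the regions below was not tested.

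The NK gene complex held the widest margins. All 9 regions of the table between chr6:129581277-129581776 and chr6:129747291-129747918, a span of 167 kb, were most open in LI. They were nearest to Klre1 (2 regions), Klrd1, Klrk1 (2 regions), Klrc3, Klrc2, Klrc1 and Klri2. The region with the largest margin of all, 1.93, lay 8.03 kb downstream of the start of Klrd1, which encodes CD94 (chr6:129599545-129600145, intergenic). Its normalised counts were 354 and 347 in LI, 41.3 and 61.7 in SI, 68.9 and 90.3 in pancreas, 58.0 and 46.5 in lung and 66.0 and 80.9 in BM. The LI mean level was 4.40-fold that of pancreas, the nearest tissue, and in the other tissues the ranges of SI and lung overlapped below those of pancreas and BM, which overlapped too. A region open in more cells and a region more open in each cell cannot be told apart in such sorted pools. The region upstream of Klrc1, which encodes the inhibitory partner NKG2A, had the next largest margin (chr6:129680296-129680855, intergenic, 1.60 kb from the start), with 463 and 690.0 in LI, 92.1 and 132 in SI, 114 and 56.7 in pancreas, 87.0 and 51.9 in lung and 77.6 and 51.2 in BM. The 2 LI libraries differed here from each other, yet the lower one stood well above the highest of the rest, SI replicate 2.

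Promoters of the complex were open in LI as well. At the promoter of Klrc3, which encodes NKG2E (chr6:129643019-129643548), the normalised counts were 198 and 210.3 in LI, 60.5 and 51.6 in SI, 15.5 and 39.9 in pancreas, 40.8 and 43.2 in lung and 27.2 and 39.1 in BM. At the promoter of Klrc2, which encodes the activating NKG2C (chr6:129660331-129660830), they were 200.1 and 256 in LI, 40.3 and 68.5 in SI, 36.8 and 46.2 in pancreas, 38.4 and 38.8 in lung and 34.0 and 56.7 in BM. Both promoters were several times as open in LI as anywhere else. At the promoter of Klrk1 (chr6:129622376-129622954) LI had 351 and 517 and the other libraries 149.7 to 255 at a margin of 0.46, with lung and pancreas also open. The second Klrk1 region, 14.1 kb downstream of the start (chr6:129608327-129608898), had 295 and 318 in LI and 91.2 to 178 elsewhere. Klrc1, Klrc2 and Klrc3 are close paralogs, and the authors kept uniquely mapped reads alone, and these values are uncertain wherever the paralogs share sequence.

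Klre1 and Klri2, which encode receptor subunits that pair with each other, lay at the ends of the cluster. The Klre1 regions were in intron 2 (chr6:129581277-129581776), with 109 and 107 in LI and 26.2 to 46.4 elsewhere, and in intron 5 (chr6:129583019-129583518), with 100.03 and 159 and 10.2 to 38.7. The region 7.12 kb upstream of Klri2 (chr6:129747291-129747918) differed from the rest of the cluster in that SI was also high. It had 537 and 988 in LI, 305 and 284 in SI, 85.6 and 113 in pancreas, 119 and 82.5 in lung and 57.3 and 27.9 in BM. The order of the tissues at Klri2 was thus LI, SI and then the rest, with both SI libraries above all 6 libraries of pancreas, lung and BM.

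**Figure D2:**
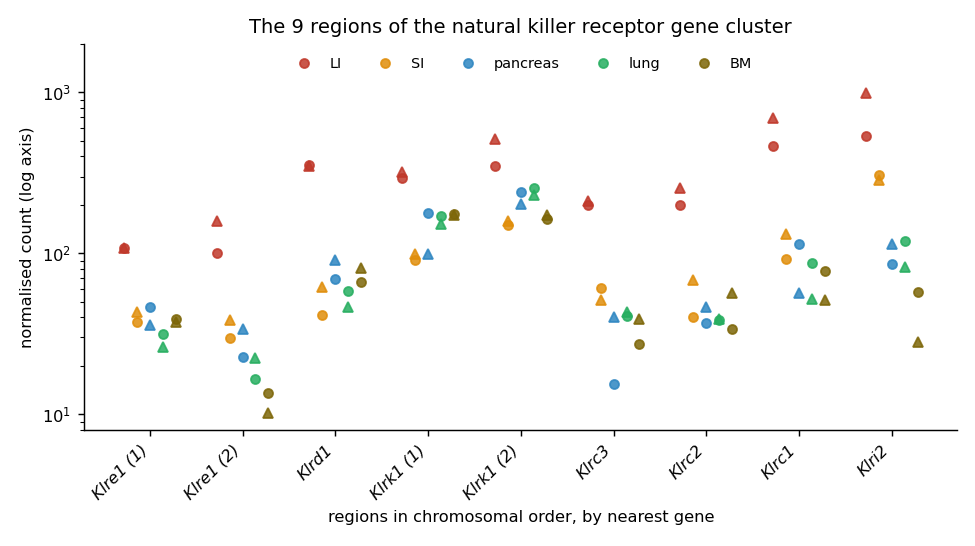
Normalised counts (log axis) of the 9 regions of the NK receptor cluster in chromosomal order, named by nearest gene, with circles for replicate 1 and triangles for replicate 2 of each tissue. The LI points were the highest pair in every region, from 100 at the lower Klre1 library to 988 at Klri2, and SI was clearly above lung, pancreas and BM at Klri2, with 305 and 284.

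More regions of the complex on either side were most open in LI. A region 29.2 kb downstream of the start of Klra6, a Ly49 family receptor (chr6:129997467-129997966), had 131 and 260.0 in LI and 19.4 to 61.1 elsewhere. Smaller margins were found at Klra10 (0.49), at Klrb1f of the NKR-P1 family (0.34 and 0.43 in 2 regions), at Klrb1b (0.36) and near Cd69, a lectin-like retention receptor of activated lymphocytes (0.55). At the Klrb1f region in intron 1 (chr6:129051633-129052188) LI had 259 and 258, BM 145 and 192 and the remaining libraries 51.0 to 111. Among the 26 NK-type lectin receptor genes listed, 16 had a region and 10 of these had a region most open in LI, with 13 of their 47 regions (27.7%, against 2.07% of all regions). The list did not hold every receptor named above.

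Outside the complex, the 20 largest margins lay at genes of varied function. The region 36.1 kb upstream of 1810008I18Rik (chr7:65766675-65767174), had 131 and 123 in LI and 5.58 to 35.7 elsewhere. The region 30.5 kb downstream of the start of Trib1, a pseudokinase scaffold for a ubiquitin ligase (chr15:59678924-59679423), had 120.4 and 113 and 13.0 to 33.6. In intron 3 of Frmd4a, a scaffold protein of cell polarity (chr2:4445631-4446130), LI had 219 and 179 and the other libraries 20.4 to 57.4. In each of these the other tissues had little signal, and the smallest fold between LI and another tissue's mean level ran from 3.62 to 4.34.

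Other large margins were in introns and in 1 more intergenic region. They lay in intron 12 of Cyria (chr12:12371881-12372430, LI 434 and 439, others 41.6 to 147), intron 12 of Ttc28 (chr5:111247666-111248320, 210.2 and 236 and 28.1 to 72.1), and 94.8 kb from Plppr4 (chr3:117265804-117266303, 200.1 and 136 and 4.37 to 46.2). Further ones lay in intron 1 of Golim4 (margin 1.49), intron 6 of Etv6 nearest to Gm17089 (1.49), intron 1 of Me3, a mitochondrial malic enzyme (1.45), and introns 2 and 3 of Daam1, a formin that builds actin filaments (1.41 and 1.39). The margins of all these were 1.39 to 1.56, and none was at a promoter.

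Tandem repeats made up 3 of the 20 largest margins. A region counted as a tandem repeat when its central 500 bases matched themselves at 60% or more of positions at a shift of 5 to 150 bases, a definition set after the data were seen. Of the 1035 regions 14 (1.35%) were tandem repeats, against 363 of all regions (0.725%). The Gata3 region shown above, 102 kb downstream of the start of that lineage factor (chr2:9775887-9776477), matched itself best at a shift of 61 bases. Its normalised counts were 761 and 554 in LI, 65.3 and 59.7 in SI, 164 and 185 in pancreas, 59.6 and 27.3 in lung and 46.6 and 53.9 in BM. Pancreas came second at Gata3 and both of its libraries were above SI, lung and BM. The Gdap10 region, in intron 9 of Nampt, an enzyme of NAD salvage (chr12:32848117-32848616), matched itself best at a shift of 44 bases and had 264 and 187 in LI and 5.58 to 55.6 elsewhere. The Scn8a region in intron 1 of that sodium channel gene (chr15:100898662-100899161) matched itself best at a shift of 25 bases and had 532 and 251 in LI and 13.3 to 89.1 elsewhere, and the LI replicates differed by more than the others in it. Whether the number of repeat copies in the mice of each pool equals that of the reference was not tested.

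Promoters with large margins were few beyond Klrc3 and Klrc2. The promoter of Ifi203, an interferon-induced DNA-binding protein (chr1:173942137-173942870), had 719 and 735 in LI and 270.5 to 492 elsewhere, and an internal promoter of Palld, an actin-binding protein (chr8:61590860-61591485), had 258 and 265 and 99.0 to 183. The promoter of Mmp10, a secreted matrix protease (chr9:7501073-7501651), had 117 and 154 in LI and 26.5 to 84.0 elsewhere. Margins at these promoters were 0.55, 0.49 and 0.47, under those at the promoters of Klrc3 and Klrc2. These genes, like the flanking ones of the NK complex, were named after their values were seen.

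Regions most open in LI lay close together at some genes. Of the 1035, 404 (39.0%) had another within 100 kb, and 20 groups of at least 4, joined at that distance, held 111 of them. The largest group had 10 of the 44 regions of a stretch around Etv6, an ETS family repressor (chr6:133967255-134366764). Dense groups beside the NK receptors were 9 of 12 regions between Rasgef1b and Gm38691 (chr5:99336410-99579135) and 5 of 6 within Frmd4a (chr2:4380346-4446130). Others were 4 of 5 near Gm31583 (chr16:24159335-24215872) and 4 of 5 near Cblb and Gm29686 (chr16:51917888-52044444). Cblb encodes a ubiquitin ligase that restrains lymphocyte activation. Over the whole table the share of such regions was 2.07%.

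Within these groups the margins varied widely. The 5 Frmd4a regions had margins of 1.62, 1.17, 0.73, 0.35 and 0.23. The lowest of them, in intron 2 (chr2:4409820-4410360), was open in all tissues, with 461 and 430.0 in LI and 180.4 to 365 elsewhere. The Rasgef1b regions lay in introns 2 and 3 of A930011G23Rik and had margins from 0.20 to 0.70, and the widest (chr5:99451877-99452421) had 251 and 399 in LI against 37.8 to 154. The same stretch could therefore hold regions that were nearly closed outside LI and regions that were only somewhat lower there.

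The receptors ICOS and CTLA4 of T cell and ILC costimulation shared a group of 8 of 29 regions (chr1:60833540-61046643). Icos was the nearest gene of 5 of these and Ctla4 of 3. The widest margin lay 61.6 kb downstream of the Icos start (chr1:61039249-61039748), with 149 and 185 in LI, 34.5 and 59.0 in SI, 20.2 and 58.8 in pancreas, 47.0 and 24.6 in lung and 34.9 and 47.4 in BM. A region 68.5 kb downstream of the Icos start (chr1:61046091-61046643) was open everywhere, with 658 and 723 in LI and 323 to 558 elsewhere. The Ctla4 region shown above, 75.2 kb upstream of the start (chr1:60833540-60834039), had 122 and 100.4 in LI, 33.6 and 23.7 in SI, 20.2 and 67.2 in pancreas, 14.1 and 8.74 in lung and 7.76 and 13.0 in BM. The next highest library at Ctla4 was pancreas replicate 2, the shallowest one, and at Icos it was level with SI replicate 2.

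Other costimulatory genes had 1 region each. Slamf1, a homophilic receptor of activated lymphocytes, had 1 region in the table, and it was most open in LI (chr1:171788406-171788959, intron 4), with 158 and 142 in LI, 68.1 and 78.7 in SI, 63.0 and 79.8 in pancreas, 45.5 and 25.7 in lung and 34.9 and 39.1 in BM. Cd69, Cd226 and Cd96, the last 2 being receptors for nectin-like ligands, had margins of 0.55, 0.25 and 0.24. Together 6 of 26 costimulatory and checkpoint receptor genes had 12 of 170 regions (7.06%) most open in LI. Of the TNF superfamily 3 of 28 genes had 4 of 138 (2.90%), which were Tnfsf4 (OX40 ligand, 119 and 102 in LI and 14.8 to 54.7 elsewhere), Tnfsf18 (GITR ligand, 131 and 132 and 16.5 to 77.3) and Fasl, the death ligand, with 2 regions of which the wider-margin one had 471 and 533 and 83.5 to 271.

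Cytokine and secreted effector genes had 6 of 148 regions (4.05%) at 5 of 27 genes. The region nearest to Il13 lay in intron 24 of Rad50 (chr11:53650922-53651421), a gene whose introns carry the locus control region of the type 2 cytokine genes, and had 129 and 84.1 in LI and 40.8 to 64.2 elsewhere. The only region nearest to Il22, whose cytokine acts on gut epithelium, lay 9.67 kb upstream (chr10:118194998-118195595) with 334 and 421 in LI, 263 and 245 in lung and 96.1 to 176 in the remaining tissues. A region 9.77 kb downstream of the start of Il17a (chr1:20740421-20740933) had 309 and 482 in LI, again with lung next at 249 and 204. The Il22 and Il17a regions had lung in second place, unlike most of the 1035. Both genes were on the ILC3 marker list whose promoters are given above, and neither of their own promoters had a region. Bmp2 had 2 regions and the promoter of Cxcl1 1, with a margin of 0.22. Among cytokine receptors 2 of 29 genes had 4 of 189 regions (2.12%), 3 of them nearest to Il7r, the IL-7 receptor, where the widest-margin one (chr15:9614706-9615205, intron 26 of Spef2) had 112 and 101 in LI and 20.2 to 64.2 elsewhere. The fourth was nearest to Tgfbr1 (margin 0.33).

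Transcription factor genes of the lymphoid lineage had 24 of 658 regions (3.65%) at 18 of 57 genes. Beside Gata3 the widest margins were at Klf4 (0.84), Runx1 (0.82), Foxo1 (0.81, a tandem repeat), Runx2 (0.71) and Epas1 (0.65). The Runx2 region in intron 5 (chr17:44569036-44569700) was the highest of these in LI, with 515 and 648 in LI, 269.7 and 279 in SI, 315 and 260.4 in pancreas, 179 and 138 in lung and 109.7 and 138 in BM. Listed factors had 11.5 regions per gene against 2.98 over all genes. The share of regions and not of genes is therefore the one to set beside the 2.07% of the whole table. No list share was adjusted for the scarcity of promoters among the 1035 regions (3.67% against 19.2% of all regions). In Ikzf3, which encodes Aiolos and was looked at after the values were seen, 1 of 7 regions was most open in LI (intron 3, chr11:98512856-98513355), with 147 and 163 in LI and 37.2 to 107 elsewhere.

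Ahr, the ligand-activated aryl hydrocarbon receptor, had 5 of the 8 regions found among nuclear receptor and AHR pathway genes (3 of 34 genes, 8 of 233 regions, 3.43%). The widest margin, at the region shown above 54.1 kb downstream of the start (chr12:35480620-35481119), came with 110.2 and 128 in LI, 63.3 and 2.71 in SI, 4.75 and 52.5 in pancreas, 10.98 and 16.4 in lung and 3.88 and 7.44 in BM. The SI pair and the pancreas pair were each split there, with one library high and its replicate near 0. The highest Ahr region in LI, 44.2 kb upstream (chr12:35578865-35579455), was open in all tissues with 905 and 1145 in LI and 529 to 772 elsewhere. Nr3c1, the glucocorticoid receptor, had 2 regions with a margin of up to 0.45 and Nrip1, a corepressor, had 1 (0.23).

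Genes of neuropeptide, lipid and cyclic nucleotide signalling had 19 of 311 regions (6.11%) at 7 of 42 genes. Phosphodiesterases that break down cyclic AMP took 13 of the 19, with 5 at Pde4b, 5 at Pde10a and 3 at Pde7a. The Pde4b region 18.2 kb downstream of the start (chr4:102607767-102608294) was the highest of these, with 1168 and 1197 in LI, 556 and 792 in SI, 179 and 227 in pancreas, 278 and 309 in lung and 162 and 118 in BM. SI was second at Pde4b and BM last. Prkch, a protein kinase C, and Cysltr1, a leukotriene receptor, had 2 regions each with margins of up to 0.81 and 0.22.

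AP-1 and other bZIP factor genes had 5 of 223 regions (2.24%), close to the share of the whole table. They were nearest to Cebpd, Jun, Nfil3, Batf and Maf. The Jun region, 2.15 kb downstream of the start in an untranslated part of the gene (chr4:95049823-95050322), had 929 and 764 in LI, 540.3 and 311 in SI, 319 and 239 in pancreas, 269.7 and 326 in lung and 489 and 362 in BM. Batf had a margin of 0.30 and Maf of 0.26. NF-kappaB and TNF response genes had 8 of 228 (3.51%), at Nfkb1, Tnfaip8, Tnip1, Nfkbiz, Traf1 and Tnip3, with margins from 0.25 to 0.47. Survival, death and stress response genes had 11 of 267 (4.12%), 4 of them at Trib1 and 1 each at Ddit4, an inhibitor of mTORC1 (margin 0.96), Hilpda (0.37), Pmaip1 (0.34), Mcl1 (0.29) and others.

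Homing genes had 6 of 279 regions (2.15%), again close to the whole table. Among them was a region 16.8 kb downstream of the start of Gpr15, a receptor that draws lymphocytes to the large intestine (chr16:58701761-58702295), with 332 and 414 in LI, 109 and 204 in SI, 85.6 and 119.7 in pancreas, 115 and 78.7 in lung and 95.1 and 149.8 in BM. The others were nearest to Itga2, Selplg, Cd44, Gpr183 and Cxcr4. TGF-beta and BMP signalling genes had 4 of 199 (2.01%), at Acvr2a, Tgfbr1 and Bmp2. Shares near the 2.07% of all regions are not a result about these lists.

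**Figure D3:**
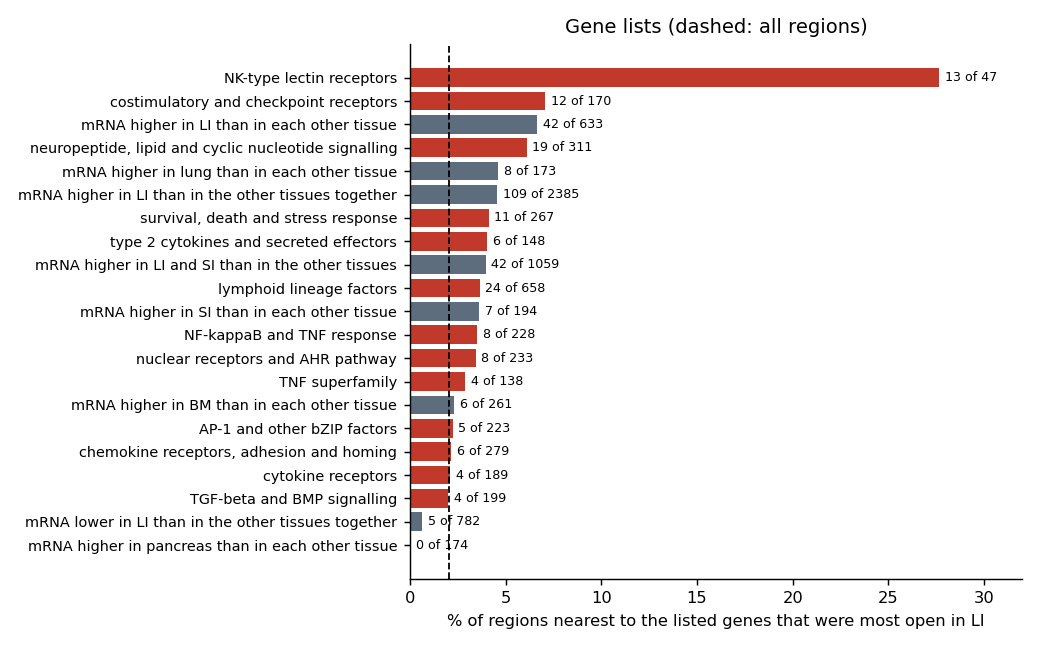
Share of the regions nearest to each list's genes that were most open in LI, in percent, with the counts beside the bars, red for lists by gene function and grey for the study's lists by mRNA, and a dashed line at the 2.07% of all regions. NK-type lectin receptors had 27.7% (13 of 47), and the list of genes with lower mRNA in LI had 0.639% (5 of 782).

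The study's own lists by mRNA, made from single ILC2s of these tissues, were set beside the regions. They are not independent of the study's choice of tissues and contrasts, and the list for LI was tied to the same tissue. Of 80 genes with a region and with mRNA higher in LI than in each other tissue, 21 had 42 of 633 regions (6.64%) most open in LI. The widest margins among them were at Icos, Ddit4, Pxdc1, Klrk1, Rasgef1b and Pde10a. The wider list of mRNA higher in LI than in the other tissues together had 109 of 2385 (4.57%), and the list of genes higher in both LI and SI had 42 of 1059 (3.97%). The list of genes lower in LI had 5 of 782 (0.639%), at Jun, Klf2, Ly6a, St3gal6 and Ikzf1. The lists for the other tissues had 8 of 173 for lung (4.62%), 7 of 194 for SI (3.61%), 6 of 261 for BM (2.30%) and none of 174 for pancreas.

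The other tissues were not equally low in the regions most open in LI. Pancreas had the highest mean level of the other tissues in 461 of the 1035 regions (44.5%), SI in 336 (32.5%), lung in 158 (15.3%) and BM in 80 (7.73%), while over all regions these shares were 22.7%, 28.0%, 17.8% and 31.5%. BM was the lowest of the 5 tissues' levels in 541 regions (52.3%). The single library that was highest after LI was most often pancreas replicate 2, the shallowest one, in 286 regions.

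To see how the other tissues differed from one another there, the 8 libraries of SI, pancreas, lung and BM were tested without LI, each tissue against the mean of the other 3, with edgeR's quasi-likelihood test over 49981 regions and Benjamini-Hochberg adjustment. All 1035 regions were tested. The rule had capped the highest of these 8 libraries but had not used their order, and the 4 comparisons share libraries. A region that was higher in any of these tissues than in LI could not be kept. The shares of all regions are free of that cap and are therefore not a like-for-like background. How far that cap shaped the counts called here was not tested. BM was lower in 321 of the 1035 (31.0%, against 14% of all regions tested) and higher in 22 (2.13%, against 11.3%), with a median log2 difference of -0.54. Pancreas was higher in 217 (21.0%, against 11.4%) and lower in 8 (0.773%, against 3%), with a median of 0.48. SI was higher in 172 (16.6%, against 13.2%) and lower in 35 (3.38%, against 10.9%), with a median of 0.24. Lung was higher in 62 (5.99%, against 7.45%) and lower in 103 (9.95%, against 6.07%), with a median of -0.09. The medians over all regions were within 0.01 of 0.

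Single libraries decided several of these counts. Without pancreas replicate 2 the count of regions higher in pancreas fell to 44 (4.25%, against 3.91% of all regions), which is near the background, and without pancreas replicate 1 it was 94 (9.08%, against 6.36%). The median log2 difference stayed at 0.38 and 0.57. Without BM replicate 1 or 2 the count of regions lower in BM was 144 (13.9%, against 5.56%) or 178 (17.2%, against 7.13%), and the share stayed above the background. Without SI replicate 2 the count higher in SI was 93 (8.99%, against 12.4%), below the background. The lung counts fell in both directions when either lung library was left out. The share of all regions called in lung is not given for these settings. That fall is therefore not read as specific to the regions most open in LI. A tissue left with 1 library was assumed to vary like the others.

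**Figure D4:**
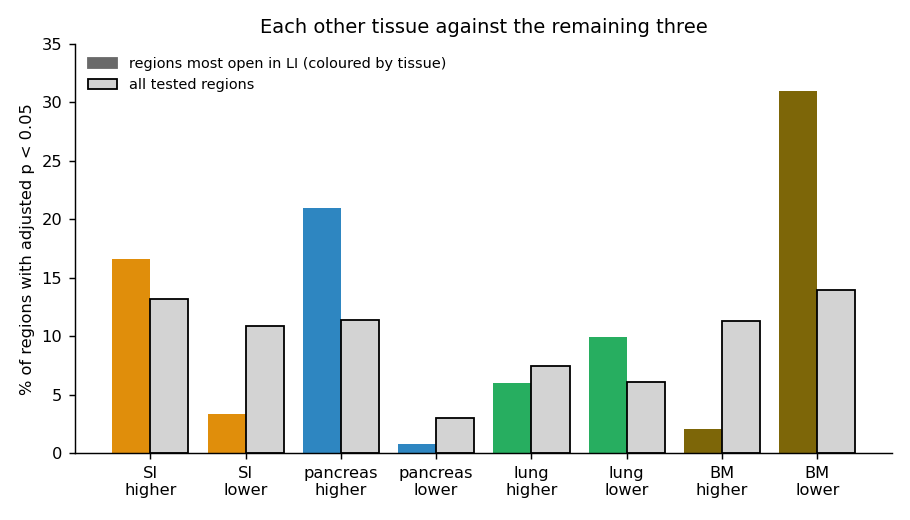
Share of regions, in percent, that were higher or lower (adjusted p under 0.05, edgeR) in SI, pancreas, lung or BM against the other 3 of these tissues, for the 1035 regions most open in LI (coloured bars) and for all 49981 regions tested (grey bars). BM was lower in 31.0% against 14%, and pancreas was higher in 21.0% against 11.4%. The grey bars include regions that the rule could not keep.

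Single regions showed the orders that the counts summarise. Among the regions lower in BM was one in intron 7 of Lrrc6 (chr15:66445200-66445722), with 393 and 439 in LI, 209 and 306 in SI, 292 and 321 in pancreas, 246 and 223 in lung and 22.3 and 33.5 in BM. Its log2 difference for BM was -3.26 (SE 0.29, edgeR quasi-likelihood adjusted p = 5.1e-06), and both BM libraries were below the other 6. A region far from Sh2d4a (chr8:68157133-68157648) had 67.9 and 77.2 in BM and 289 to 436 in SI, pancreas and lung (-2.36, SE 0.22, edgeR adjusted p = 7.4e-06). These regions were several times as open in every other tissue as in the marrow. A few went the other way, such as intron 2 of Pde10a (chr17:8871988-8872728), which was higher in BM (0.89, SE 0.18, edgeR adjusted p = 0.0020) and lower in lung (-1.27, SE 0.20, edgeR adjusted p = 0.00073), with 590.0 and 699 in LI, 318 and 403 in SI, 305 and 368 in pancreas, 158 and 166 in lung and 508 and 507 in BM.

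In pancreas the smallest adjusted p among these regions was at a region 68.8 kb from Rbbp8, a DNA end-resection factor (chr18:11564231-11564763), with 314 and 309 in LI, 66.2 and 136 in SI, 240.1 and 195 in pancreas, 35.3 and 32.8 in lung and 15.5 and 25.1 in BM. The log2 difference for pancreas was 2.41 (SE 0.28, edgeR adjusted p = 4.6e-05). Regions in intron 6 of Dmxl2 (2.26, SE 0.30, edgeR adjusted p = 0.00013) and 33.4 kb from Fam107b (1.67, SE 0.23, edgeR adjusted p = 0.00017) followed, and in all of these both pancreas libraries lay between LI and the rest. The reverse was found 33.9 kb from 1700012D14Rik (-1.29, SE 0.24, edgeR adjusted p = 0.0022) and 4.75 kb from D7Ertd443e (-1.15, SE 0.25, edgeR adjusted p = 0.0058), where both pancreas libraries were the lowest.

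In SI the Pde4b region described above rose most clearly (log2 difference 1.73, SE 0.19, edgeR adjusted p = 1.9e-05), followed by intron 15 of Glb1 nearest to Gm30254 (1.63, SE 0.19, edgeR adjusted p = 2.7e-05) and the Klri2 region (1.97, SE 0.25, edgeR adjusted p = 4.7e-05). All 3 ran LI, SI and then BM at the bottom. The opposite order, open in LI and nearly closed in SI, was found in intron 3 of Frmd4a (chr2:4440200-4440999), with 334 and 244 in LI, 41.3 and 43.4 in SI, 188 and 191 in pancreas, 144 and 141 in lung and 127 and 159 in BM and a log2 difference of -1.89 (SE 0.25, edgeR adjusted p = 7.5e-05). It was found also 51.0 kb from 4833412C05Rik (-1.57, SE 0.23, edgeR adjusted p = 0.00018) and in intron 2 of Mdfic (-1.68, SE 0.29, edgeR adjusted p = 0.00056). In these both SI libraries were the lowest of the 10, so the 2 intestinal tissues were at opposite ends.

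In lung the clearest rises were 2 regions in intron 1 of Gm29811, a long noncoding RNA gene (chr3:132863064-132863591 and chr3:132865056-132865564), with log2 differences of 1.49 (SE 0.21, edgeR adjusted p = 0.00029) and 1.75 (SE 0.27, edgeR adjusted p = 0.00065). The first had 515 and 725 in LI, 187 and 149 in SI, 242 and 311 in pancreas, 378 and 391 in lung and 42.7 and 71.6 in BM. Intron 2 of Plekhg1 rose too (1.56, SE 0.24, edgeR adjusted p = 0.00068). The clearest falls in lung were near Cul3, a ubiquitin ligase scaffold (-1.72, SE 0.25, edgeR adjusted p = 0.00041), and near Bmp2, a growth factor (-2.13, SE 0.33, edgeR adjusted p = 0.00062), where the lung libraries had 25.1 and 27.9 against 57.3 to 259 in SI, pancreas and BM.

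The AP-1 motif was the commonest of 16 motifs searched in these regions. Within the central 500 bases of each region and on both strands, TGANTCA (N is any base) occurred in 592 of the 1035 regions, which is 57.2% (95% Wilson interval 54.2 to 60.2%), against 23.2% of all regions. Outside promoters the shares were 57.5% and 26.6%. Regions with at least 2 copies, like the Slamf1 and Ctla4 stretches shown above, made up 19.1% against 4.26%. The sequence was not part of the rule. Among the non-promoter regions most open in another tissue the share was 43.6% for pancreas (interval 40.9 to 46.3%) and 28.6% for lung (25.9 to 31.5%). It was 22.3% for SI (20.3 to 24.4%) and 16.5% for BM, so LI had the highest share of the 5 tissues. These intervals cover counting error over regions and not the spread between libraries. Cell isolation differed between tissues, and the part of isolation in these shares was not tested.

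AP-1 matches were concentrated at the middle of the regions. In the 50 bases on either side of the centre 15.6% and 16.4% of the non-promoter regions most open in LI had a match, against 2.61% and 3.11% in the outermost 50 bases. For all non-promoter regions the central values were 5.93% and 6.15%. The share varied little with base composition, at 50.8% to 60.5% over 4 bands of GC content against 19.3% to 34.3% for all non-promoter regions. It varied little with the margin too, with 53.7% in the 259 regions of smallest margin (up to 0.28) and 59.5% in the 259 of largest margin (from 0.58). Of the 53 regions with a margin of at least 1, 60.4% had the motif, although the widest-margin one, at Klrd1, did not have it in the stretch shown.

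**Figure D5:**
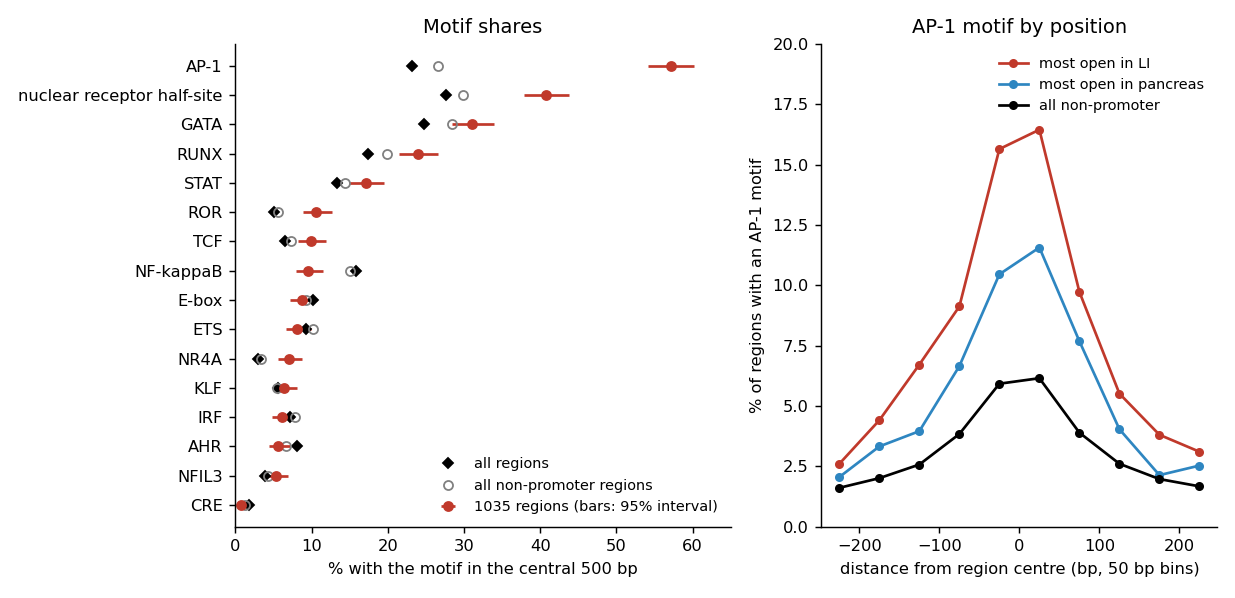
Left, percent of regions with each of 16 motifs in the central 500 bases, for the 1035 regions most open in LI (red, with 95% Wilson intervals), all regions (diamonds) and all non-promoter regions (open circles). Right, percent of non-promoter regions with an AP-1 motif by distance from the region's centre in 50 bp bins: AP-1 stood at 57.2% against 23.2% of all regions, and the central bins reached 16.4% in LI and 11.6% in pancreas.

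AP-1 also went with the order of the other tissues. Over all regions tested, those with the motif were higher in pancreas in 22.8% and those without in 7.94%, and they were lower in BM in 26.5% and 10.2%. Among the regions most open in LI the motif made less difference, with 22.3% and 19.2% higher in pancreas and 32.4% and 29.1% lower in BM. The regions without AP-1 were thus also more often higher in pancreas and lower in BM than all regions without it. This comparison of shares was not tested.

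Nuclear receptor motifs were also more frequent. The half-site AGGTCA occurred in 40.8% of the regions most open in LI (interval 37.8 to 43.8%) against 27.7% of all. Its share was 36.2% (33.7 to 38.8%) in the regions most open in pancreas. It was 32.6% in those of SI, 29.6% in those of lung and 23.7% in those of BM. The ROR motif TAGGTCA occurred in 10.6% (8.89 to 12.7%) against 5.01%, and the NR4A motif AAAGGTCA in 7.05% (5.65 to 8.78%) against 2.93%, both of which contain the half-site. The ROR share was 5.06% in the regions most open in SI, 5.92% in those of pancreas, 6.74% in those of lung and 4.06% in those of BM. The NR4A share was 4.54%, 6.30%, 2.12% and 1.39% in the same order. The NR4A interval of pancreas (5.11 to 7.73%) overlapped that of LI. RORs and NR4As are orphan nuclear receptors, with ROR alpha known for its part in ILC2 development.

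Motifs of other factor families were searched in the same way. The RUNX motif, TGTGGTT, was found in 24.0% of the members against 17.4% of all regions. For the GATA motif, which is spelled AGATAA, the shares were 31.1% and 24.8%. The STAT motif TTCNNNGAA was found in 17.1% against 13.3%, while TCF (ATCAAAG) had 9.95% against 6.56% and NFIL3 (TTANGTAA) had 5.31% against 3.84%. Within bands of GC content outside promoters the RUNX share was 19.8% to 28.9% against 13.2% to 25.7% and the STAT share 10.7% to 20.1% against 11.1% to 18.2%, each above the share of all regions in 3 of the 4 bands and below it in 1. The GATA share was 14.1% to 45.1% against 15.5% to 44.97%, level with or below the share of all regions in each of the 4 bands. The regions most open in pancreas and BM had more GATA motifs, with 41.0% and 36.1%. KLF (CCACACCC) was found in 6.38% against 5.59%, ETS (CAGGAAGT) in 8.12% against 9.24%, E-box (CACGTG) in 8.79% against 10.2%, IRF in 6.09% against 7.22%, AHR (TNGCGTG) in 5.60% against 8.05% and CRE (TGACGTCA) in 0.676% against 1.72%. The NF-kappaB motif was rarer, in 9.57% against 15.8%. A match shows letters and not binding, and the absence of one says nothing of the factor.

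The threshold passed through a continuous range. Just inside it were regions near Efnb2 (chr8:8488876-8489400, LI 129 and 118, others 14.8 to 102), in intron 1 of Gsdme (312 and 219.7 and 94.5 to 191) and near Gpd2 (197 and 130.4 and 25.7 to 113). Just outside were intron 3 of Nt5e (339 and 264 and 118 to 230.1), a region near Tnfrsf19 (214 and 154 and 44.1 to 134) and intron 1 of Ankrd6 (331 and 381 and 71.4 to 288). Margins were 0.2001 to 0.2003 inside and 0.1989 to 0.1994 outside.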

How the data were processed

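ATAC-seq was performed by the authors on 2 libraries of sorted ILC2s from each of 5 tissues. Per the labels and the study's methods, reads were checked with FastQC 0.11.9 and mapped to mm10 with Bowtie2 2.2.9, uniquely mapped reads were kept, files were converted with SAMtools 1.8, peaks were called with MACS2 2.1.1 at a q value of 0.01, and peaks found in both replicates were merged over tissues. Values in the deposited table are raw read counts per merged region and library, not normalised. The table's total counts per library were 10282987 to 32797872. Whether reads were shifted for the transposase is not given in the sources used here. The methods name DESeq2 for the study's own comparisons, none of which was used.

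Counts were divided by median-of-ratios size factors (0.476 to 1.83), 1 was added and log2 was taken, and regions were kept by the margin of 0.2. The regions, gene lists and alternatives were chosen with earlier results of these data known, and LI was not tested against the other tissues because the rule used that contrast. The other 4 tissues were compared with edgeR 4.0.16 in R 4.3.3 (TMM scaling, quasi-likelihood test, two-sided, Benjamini-Hochberg adjustment over regions with at least 1 count, threshold 0.05). The libraries were pools of mice described as biological duplicates, and with 2 per tissue p-values measure only the spread between these pools. Replicates differed by more than sampling noise (chi-square per degree of freedom 12.8 to 56.1), so none was counted once. Regions were assigned to the RefSeq gene (GRCm38.p6, curated transcripts) with the nearest start, and sequence was read from the same build. Shares carry 95% Wilson intervals, which cover counting error only. The text names the 20 largest margins, the 5 highest regions in LI, genes nearest to at least 4 members (the ones with a group or list result), up to 6 genes per list by margin, the 3 smallest adjusted p-values per comparison and direction, and 3 regions on each side of the threshold. A few results that these rules would name are not reported here. Figures were drawn with matplotlib 3.10.9.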

Additional observations from a re-analysis of the deposited data

How the results depend on the processing

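Scaling and margin moved how many regions were most open in LI, and the promoter and AP-1 shares moved as well. Scaling by total count gave 653 regions (588 of them shared with the 1035), a margin of 0.5 gave 329 and a margin of 0 gave 2210. TMM (1086, 1013 shared), quantile normalisation (939, 817 shared), removal of the GC trend (803, 722 shared), a pseudocount of 5 (1014) and thinning to the smallest library (1021, 837 shared) stayed within 1.5 times, as did leaving out the mitochondrial-like regions (1006) or the tandem repeats (1021). The thinning, both omissions and the motif shares under other scalings were added after the data were seen. Leaving out 1 library at a time gave 1062 to 2592 regions, with 2592 without LI replicate 1 and 2422 without LI replicate 2. The promoter share was 5.80% with promoters widened to 1000 bp on both sides (27.4% of all regions), 5.96% after quantile normalisation and 6.23% after removal of the GC trend. The shares after quantile normalisation and GC removal lay above the main interval of 2.69 to 5.00% and below the 19.2% of all regions. The AP-1 share was 2.46 times that of all regions, 2.76 times in the central 200 bp, 2.16 times outside promoters and 2.78 times after scaling by total count. For the other motifs, 107 recomputed shares relative to all regions stayed within the main interval and 13 moved outside it. The cause of these shifts was not tested.

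Among the other tissues, scaling by total count gave 269 regions higher in SI, 9 higher and 373 lower in BM, 130 higher and 21 lower in pancreas and 111 higher in lung. At an unadjusted p under 0.05 the counts were 273 higher and 74 lower in SI, 42 higher in BM, 397 higher and 24 lower in pancreas and 134 higher and 202 lower in lung. With 1 library left out at a time, the counts ran from 93 to 185 higher and 26 to 31 lower in SI, from 2 to 39 higher and 144 to 352 lower in BM, from 44 to 267 higher and 1 to 13 lower in pancreas, and from 5 to 95 higher and 32 to 119 lower in lung. DESeq2 gave counts within 1.5 times of edgeR's throughout. With 1 library left out, the share of all regions called moved as well as the counts. No share of all regions is given beside the counts of this section. They are therefore not read as an excess, and the same holds for the replicate block below. Of the recomputed differences of single regions, 327 kept their direction and side of the threshold and 9 kept only the direction.

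The correlation of same-numbered deviations between tissues ran from -0.23 to 0.20 over 10 pairs of tissues and exceeded 0.1 in 4. All pairs with pancreas were negative, and the others were positive except lung with BM (-0.01). Whether libraries of the same number shared a batch was not tested. With the replicate number as a block the counts were 163 higher and 33 lower in SI, 18 and 311 in BM, 209 and 7 in pancreas and 68 and 98 in lung. With 2 libraries per tissue and 32 or more counts per LI library, regions of low counts and small differences were beyond what this depth resolves.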
